A study of Mus musculus with 6 samples.

Results

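The histone genes described here are 17 mouse genes measured in cells sorted as elongating spermatids after knockdown of Miwi or Caf1. They were chosen by symbol: a gene entered if its array annotation begins with H1f, H2af, H2bf, H3f, H2ac, H2bc, H3c, H4c or an older Hist name, or is Hils1, and if at least 1 probe set names it alone. They are 17 of the 18193 genes with such a probe set, and 22 of the 34945 probe sets that name 1 gene. Each gene was read from 1 probe set, the one with the highest mean over the 4 arrays of the knockdown groups. By role, as assigned from symbols, they comprise 4 testis-specific genes (Hils1, H1f7, H1f6 and H2bfm), 1 oocyte linker histone gene (H1f8), 3 replication-independent genes (H1f10, H3f3a and H3f3b) and 9 genes classed as replication-dependent (H1f2, H1f4, H2ac19, H2bc18, H2bc21, H2bc22, H3c4, H3c7 and H3c11). The last class took the remaining members with cluster names. Whether each of its genes, H2bc21 among them, depends on replication was not checked. A further 22 histone probe sets are annotated to several genes and are described as families, since no single gene can be named from them. Naming 1 gene follows the annotation, and reading of similar transcripts by these probe sets was not tested. The chosen probe sets of H2ac19 and H2bc22 end in _x_at and those of H2bc21 and H1f7 in _s_at. These suffixes mark probe sets that may read similar transcripts.

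All samples are labelled as elongating spermatids, the haploid germ cells in which the nucleus is reshaped and condensed. They were taken as GFP-positive cells from testes of wildtype ICR mice, an outbred strain. On control array 1 the summed signal of 12 markers of this stage was 3975, against 140165 or more on the other arrays, as given further on. The testes were transduced at 5 weeks of age with a GFP lentivirus and the cells were sorted 1 week later. The 3 groups, of 2 arrays each, received a short hairpin RNA against Miwi (shMiwi), a short hairpin RNA against Caf1 (shCaf1) or the pSilencer vector as control, so that virus, GFP and sorting are common to all arrays. Miwi is Piwil1, a PIWI protein that binds piRNAs in spermatids, and Caf1 was taken as Cnot7, a deadenylase that shortens poly(A) tails. The labels call the replicates biological but do not say how many animals stand behind an array, so the p-values measure the spread between these arrays.

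Core histones form the nucleosome and linker histones of the H1 class bind the DNA between nucleosomes. Replication-dependent histone genes lie in clusters, are transcribed in S phase and mostly give mRNAs that end in a stem-loop without a poly(A) tail, whereas replication-independent variants give polyadenylated mRNAs in any phase. Male germ cells use their own variants, and in elongating spermatids most histones are removed, first in favour of transition proteins and then of protamines.

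The stretches just upstream of 4 linker histone genes are shown because these genes share a protein class and differ in their pattern over the arrays: Hils1 and H1f7 are testis-specific and split between the control arrays, H1f6 is testis-specific and stood below both control arrays after knockdown on the deposited scale, and H1f2 is a replication-dependent H1. Each is the 250 bases before the annotated start in RefSeq, build GRCm38.p6, written on the gene's strand. They lie at chr11:94967343-94967592 on the plus strand for Hils1, chr15:98257308-98257557 on the minus strand for H1f7, chr13:23695561-23695810 on the plus strand for H1f6 and chr13:23738557-23738806 on the plus strand for H1f2. Capitals mark the CCAAT box (CCAAT, or ATTGG where it is on the other strand) and the H1 box AAACACA, an element known from H1 gene promoters.
Hils1: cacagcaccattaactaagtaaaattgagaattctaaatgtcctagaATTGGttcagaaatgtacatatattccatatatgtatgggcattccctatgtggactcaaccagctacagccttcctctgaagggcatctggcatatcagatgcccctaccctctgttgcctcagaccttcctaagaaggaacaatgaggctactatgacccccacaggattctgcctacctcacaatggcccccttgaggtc
H1f7: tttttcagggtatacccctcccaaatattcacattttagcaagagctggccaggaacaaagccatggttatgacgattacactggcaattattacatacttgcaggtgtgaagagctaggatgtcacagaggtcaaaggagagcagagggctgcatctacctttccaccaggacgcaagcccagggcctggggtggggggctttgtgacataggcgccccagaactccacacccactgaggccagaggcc
H1f6: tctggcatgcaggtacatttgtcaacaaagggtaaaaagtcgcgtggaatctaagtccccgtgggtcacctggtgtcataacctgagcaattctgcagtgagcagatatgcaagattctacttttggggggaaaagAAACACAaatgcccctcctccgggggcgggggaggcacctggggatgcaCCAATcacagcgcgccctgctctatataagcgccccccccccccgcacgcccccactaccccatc
H1f2: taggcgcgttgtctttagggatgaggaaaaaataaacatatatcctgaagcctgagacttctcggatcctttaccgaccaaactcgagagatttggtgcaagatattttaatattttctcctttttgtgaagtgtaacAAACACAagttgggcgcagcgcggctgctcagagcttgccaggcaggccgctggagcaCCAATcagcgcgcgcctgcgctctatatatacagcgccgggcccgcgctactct
H1f6 and H1f2 both hold the H1 box followed by a CCAAT box, with the H1 box 114 and 112 bases and the CCAAT box 65 and 54 bases before the start. H1f4 has the same order, at 115 and 52 bases. The Hils1 window holds 1 CCAAT on the other strand, 203 bases before the start, and the H1f7 window holds none of the searched letters.

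A RefSeq window was found for 15 of the 17 genes, all but H2bc21 and H3c7. Over both strands, CCAAT was present in 13 of these 15 windows (86.7%), against 33.8% of 32851 windows of the same length from all genes. The H1 box AAACACA was present in 4 of 15 (26.7%; H1f2, H1f4, H1f6 and H3f3a) against 6.25%, and the TATA box letters TATAAA in 5 of 15 (33.3%) against 12.4%. The octamer ATTTGCAT, known from H2B promoters, was found in the windows of H2bc18 and H3f3b (13.3%, against 1.6%). The cyclic AMP response element TGACGTCA was in 0 of 15, against 1.55% of all windows. These matches describe the letters of the windows and were not tested for use in these cells.

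The 6 arrays differ in a way that touches every comparison with the control. All were deposited with a 2% trimmed mean of 500, but the hybridization control probe sets, which read RNA that is normally added in equal amount to each hybridization, differed. Relative to their log2 mean over the 4 knockdown arrays they stood at 82.3-fold and 16.2-fold on the control arrays. On the single knockdown arrays they stood between 0.806-fold and 1.2-fold. The hybridization scale used below divides each array by its own factor. Over all tested probe sets the log2 signals of the control arrays correlated with each other at r = 0.49 and with the knockdown arrays at 0.16 to 0.536, whereas the 4 knockdown arrays correlated at 0.968 to 0.984 (across probe sets of the same arrays, which are not independent). The median difference between replicate arrays was 1.28 on the log2 scale in the control group, 0.18 in shCaf1 and 0.22 in shMiwi. For the 10 tested histone genes it was 2.18, 0.31 and 0.19.

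Piwil1, the target of shMiwi, gave signals of 9780 and 10392 in shMiwi and 21881 and 22442 in shCaf1, a log2 difference of -1.14 (SE 0.10, limma adjusted p = 0.00132, n = 2 against 2). Cnot7 gave 3633 and 4330 in shCaf1 and 4365 and 5012 in shMiwi, with a difference of 0.24 (SE 0.13, limma adjusted p = 0.304) that was called on the hybridization scale (0.63, limma adjusted p = 0.0128). On the control arrays Piwil1 read 1445360 and 292542 and Cnot7 2003570 and 188877, far above both knockdown groups on the deposited scale. Defining genes of elongating spermatids were measured on all 4 knockdown arrays, with a summed signal of the 12 markers between 140165 and 224161, but the sum was 3975 on control array 1 and 682848 on control array 2. Of these, Prm1 and Prm2 read 188624 and 237281 on control array 2. They read 66 and 110 on control array 1, where the median signal was 305. Markers of other testis cells were measured as well: on the knockdown arrays the sums were 46099 to 54182 for 8 genes of pachytene spermatocytes, 51224 to 55920 for 10 of Sertoli cells and 19498 to 23954 for 4 of Leydig cells.

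The comparison of shMiwi with shCaf1 uses the 4 arrays that resemble each other. It asks how the signals of histone genes differ between the hairpins against Miwi and Caf1. Replication-dependent histone mRNAs mostly lack a poly(A) tail, and Caf1 was taken as a deadenylase. How far the labelling kit reads mRNAs without a tail was not tested. For replication-dependent genes a signal difference therefore cannot be read as a difference in total mRNA. No tested histone gene was called on the deposited scale: of the 17 members 10 were tested, and 0 were called higher and 0 lower at a limma adjusted p under 0.05, against 3.70% of all 27022 probe sets called higher and 3.39% called lower. At an unadjusted p under 0.05 there were 4 members (H1f7, H2ac19, H2bc22 and Hils1), against 24.6% of all probe sets. Of the 10, 8 lay on the lower side in shMiwi, against 47.6% of all probe sets, and their median log2 difference was -0.22 against 0.02 over all. The groups did not overlap for 4 members that were lower in shMiwi (25.0% of all probe sets) and for 1 that was higher (29.5%). On the hybridization scale all 10 lay on the higher side, against 84.3% of all probe sets, with a median of 0.15 against 0.39 over all. There 1 member, H1f6, was called higher and 0 lower, where 26.5% and 0.966% of all probe sets were called. The groups did not overlap there for 3 members in the higher direction (H1f6, H2ac19 and H2bc21; 61.1% of all probe sets) and for 0 in the lower (5.47%). The direction of 8 of the 10 members therefore depends on the scale, although H1f7 was at 0.00 on the hybridization scale. In bulk RNA, fewer cells that hold an mRNA and less of it per cell cannot be told apart.

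The filter kept probe sets with a mean log2(signal + 16) above 5.88 over the 4 arrays. The lowest member inside it was H3f3a at 6.29 and the highest outside was H3c4 at 5.82. The 7 members below it (H1f4, H1f8, H2bfm, H3c4, H3c7, H3c11 and H3f3b) were not tested between the knockdown groups. In the comparisons with control the limit was 6.55 over all 6 arrays and 11 members passed, H3f3b at 6.57 being the lowest. H3f3b, H3f3a and H2bc18 passed there through the control arrays alone, with means under 6.55 in both knockdown groups.

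**Figure D1:**
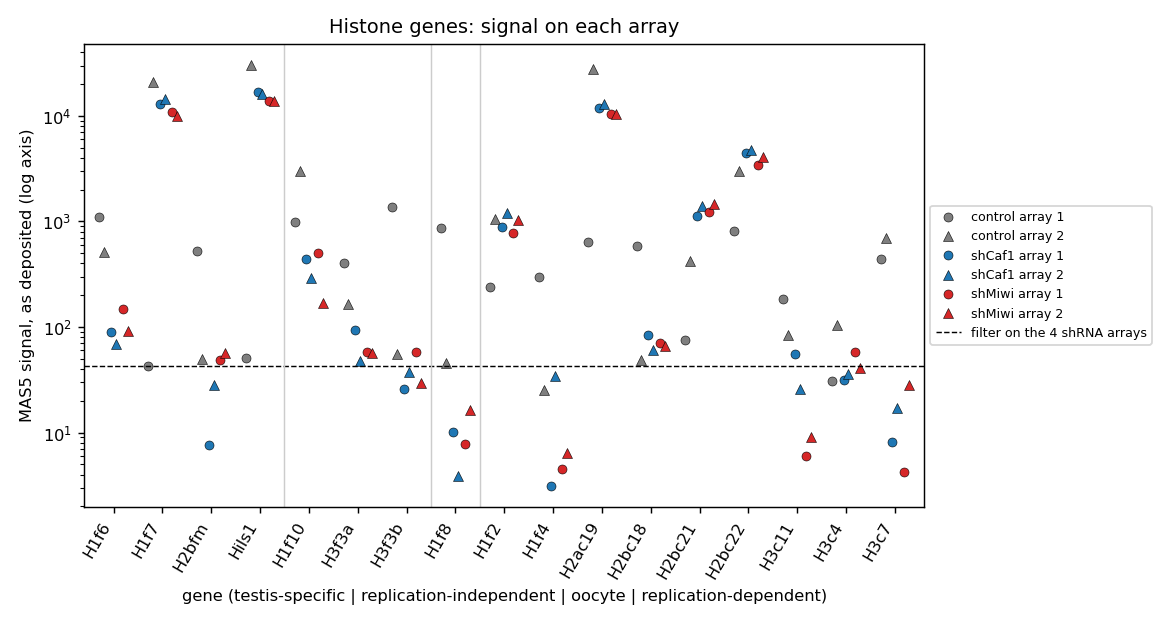
Deposited signal of each of the 17 histone genes on each of the 6 arrays, on a log axis, with the genes ordered by role, grey for control, blue for shCaf1 and red for shMiwi, circles for array 1 and triangles for array 2; the dashed line is the filter on the 4 knockdown arrays. Knockdown replicates lie close together for the bright genes, while the control arrays stand far apart for Hils1, H1f7 and H2ac19.

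Hils1 encodes a linker histone-like protein of elongating spermatids. Its signals were 16724 and 16030 in shCaf1, 13824 and 13818 in shMiwi, and 51 and 30328 on the control arrays. Both shMiwi arrays were below both shCaf1 arrays, by 1.18-fold (log2 -0.24, SE 0.09, 95% interval -0.46 to -0.03, unadjusted p = 0.029), and the difference did not pass (limma adjusted p = 0.149). It was 0.15 on the hybridization scale (adjusted p = 0.519) and 0.01 after quantile normalization. The knockdown arrays all lay between the control arrays, which differed from each other 596-fold.

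H1f7, known as H1T2 or H1fnt, encodes a linker histone that sits at 1 pole of the spermatid nucleus and is needed for its condensation. It read 13018 and 14331 in shCaf1, 10921 and 9894 in shMiwi, and 43 and 20828 in the control. The shMiwi arrays were again both lower, by 1.31-fold (log2 -0.39, SE 0.11, 95% interval -0.63 to -0.15), the nearest of all members to the threshold (limma adjusted p = 0.0588). It was called lower at the stricter filter (adjusted p = 0.0468) and without shMiwi replicate 1 (-0.46, adjusted p = 0.0489), but the difference was 0.00 on the hybridization scale (adjusted p = 0.987). A second H1f7 probe set gave 8712 and 8216 in shCaf1 and 7700 and 6585 in shMiwi, a difference of -0.25 in the same direction (limma adjusted p = 0.222). On that probe set the control arrays read 864 and 4411, both below all 4 knockdown arrays, whereas on the first only control array 1 was.

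H1f6, the H1t gene of pachytene spermatocytes, was the one tested testis-specific member on the other side. Its signals were 89 and 69 in shCaf1, 147 and 93 in shMiwi and 1113 and 508 in the control. The shMiwi arrays were both above the shCaf1 arrays, by a log2 difference of 0.49 (SE 0.29, 95% interval -0.18 to 1.16, limma adjusted p = 0.348), which did not pass. It was the member called higher on the hybridization scale, at 0.82 (limma adjusted p = 0.039). The 8 pachytene markers, which mark the stage where H1f6 is made, had a median log2 difference of 0.20 with 0 of 8 called in either direction by limma (6 of 8 higher on the hybridization scale), and their summed signal was 46099 and 48540 in shCaf1 and 49873 and 54182 in shMiwi. The part of these cells in the H1f6 values was not tested.

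H2bfm, an H2B variant gene on chromosome X, stayed under the filter. It read 8 and 28 in shCaf1, 48 and 57 in shMiwi and 527 and 50 in the control, with a log2 difference of 1.09 between the knockdown groups and no test. The oocyte linker histone gene H1f8 was under the filter too, at 10 and 4 in shCaf1 and 8 and 16 in shMiwi, although control array 1 read 874 and control array 2 read 45. For both genes 1 control array stood above the other 5 arrays.

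The lower values of Hils1 and H1f7 on the deposited scale stood beside lower values of other elongating spermatid genes. Of the 12 markers of this stage, 9 were called lower in shMiwi than in shCaf1 and 0 higher by limma, with a median of -0.55 (3 lower and 0 higher on the hybridization scale), and their summed signal was 206659 and 224161 in shCaf1 against 150509 and 140165 in shMiwi. Of 7 round spermatid markers 2 were called lower (0 on the hybridization scale), with a median of -0.21 and sums of 53766 and 54389 in shCaf1 and 44764 and 45342 in shMiwi. No marker of either list was under the filter, and the part of stage composition in the Hils1 and H1f7 values was not tested.

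**Figure D2:**
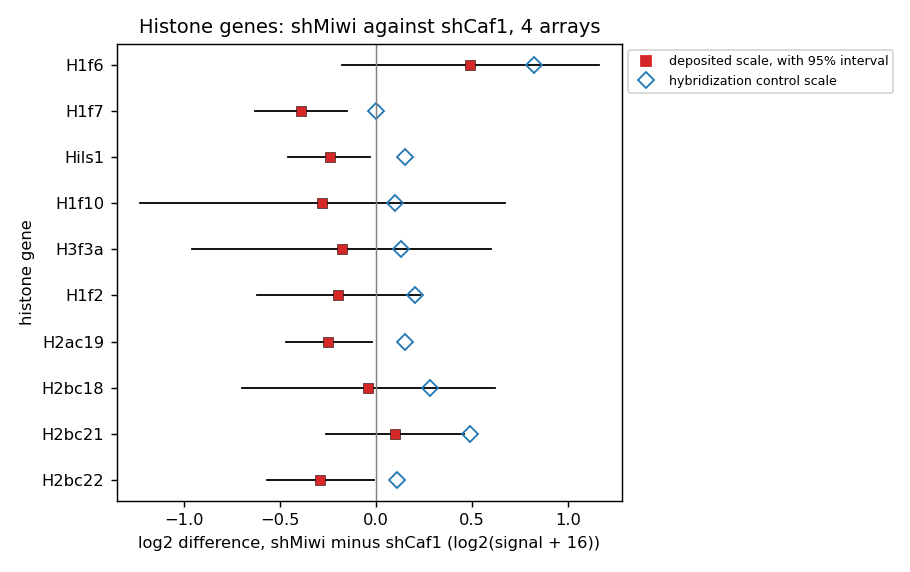
Log2 difference, shMiwi minus shCaf1, for the 10 tested histone genes: red squares with 95% intervals on the deposited scale and open blue diamonds on the hybridization control scale. On the deposited scale 8 squares lie below 0, and on the hybridization scale no diamond does.

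Among the replication-independent genes, H1f10 encodes the widely expressed linker histone H1x. Its signals were 438 and 289 in shCaf1, 497 and 168 in shMiwi, and 992 and 2987 in the control. The knockdown groups overlapped, with a log2 difference of -0.28 (SE 0.42, 95% interval -1.23 to 0.67, limma adjusted p = 0.734). Its 2 shMiwi arrays lay farther apart than the groups. Leaving out shMiwi replicate 1 moved the value to -1.02, called lower (limma adjusted p = 0.0192), and leaving out replicate 2 turned it to 0.46.

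H3f3a and H3f3b both encode H3.3, the H3 variant placed outside replication and enriched at active genes. The H3f3a probe set read 93 and 47 in shCaf1, 58 and 57 in shMiwi, and 402 and 165 in the control. The knockdown groups overlapped (log2 -0.18, SE 0.34, 95% interval -0.96 to 0.60, limma adjusted p = 0.79). H3f3b read 26 and 38 in shCaf1, 58 and 29 in shMiwi, and 1360 and 56 in the control, with a knockdown difference of 0.29 that was not tested. Both single-gene probe sets lay near the filter, and the probe sets shared by several H3.3 genes are given further on.

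The replication-dependent members divided into 5 tested genes (H1f2, H2ac19, H2bc18, H2bc21 and H2bc22) and 4 that stayed under the filter. H2ac19, a core H2A gene of the cluster on chromosome 3, read 11880 and 13012 in shCaf1, 10533 and 10423 in shMiwi, and 642 and 27556 in the control. Its shMiwi arrays were both lower, by 1.19-fold (log2 -0.25, SE 0.10, 95% interval -0.47 to -0.02, limma adjusted p = 0.169). A second H2ac19 probe set gave 6764 and 7048 in shCaf1 and 6279 and 6418 in shMiwi, a difference of -0.12 (limma adjusted p = 0.512), in the same direction.

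On the deposited scale the 3 tested H2B genes did not share a direction, but the 95% intervals of H2bc21 and H2bc18 held both signs. On the hybridization scale all 3 were higher in shMiwi, as were 84.3% of all probe sets. H2bc22 read 4434 and 4703 in shCaf1, 3408 and 4090 in shMiwi and 805 and 3033 in the control, and its shMiwi arrays were both lower (log2 -0.29, SE 0.12, 95% interval -0.57 to -0.01, limma adjusted p = 0.193). H2bc21 read 1123 and 1401 in shCaf1, 1235 and 1467 in shMiwi and 74 and 423 in the control, with overlapping knockdown groups (0.10, SE 0.16, 95% interval -0.26 to 0.46, limma adjusted p = 0.745). Its second probe set gave 362 and 328 in shCaf1 and 516 and 436 in shMiwi, higher on both shMiwi arrays by 0.44 (limma adjusted p = 0.156), and was called higher on the hybridization scale at 0.82 (limma adjusted p = 0.00676). H2bc18 was dim, at 83 and 60 in shCaf1, 71 and 67 in shMiwi and 581 and 49 in the control, and its knockdown groups overlapped (-0.04, SE 0.29, 95% interval -0.70 to 0.62, limma adjusted p = 0.952).

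H1f2 encodes a linker histone of dividing cells. Its chosen probe set read 895 and 1192 in shCaf1, 785 and 1031 in shMiwi and 237 and 1053 in the control, with overlapping knockdown groups (-0.20, SE 0.19, 95% interval -0.62 to 0.23, limma adjusted p = 0.574). A second probe set lay on the same side, at 1074 and 931 in shCaf1 and 907 and 934 in shMiwi (-0.12, limma adjusted p = 0.661). The remaining one was dim on the knockdown arrays, at 17 and 19 in shCaf1 and 57 and 49 in shMiwi, but read 1264 and 369 on the control arrays, so the probe sets of this gene disagree on the control.

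Of the 4 dim replication-dependent genes, H1f4 is a further linker histone gene. It read 3 and 34 in shCaf1, 4 and 6 in shMiwi and 299 and 25 in the control. A low signal of such genes does not show that their mRNAs without a tail were scarce. The H3 genes were under the filter too: H3c4 lay between 31 and 58, H3c7 between 4 and 28 and H3c11 between 6 and 55 on the knockdown arrays. H3c11 was lower on both shMiwi arrays (6 and 9) than on both shCaf1 arrays (55 and 26), a log2 difference of -1.22 near the lower end of the signal range, which was not tested. H3c7 read 436 and 700 in the control, above all 4 knockdown arrays on the deposited scale. The 18 tested genes of S phase and dividing cells, the phase in which these histone genes are transcribed, had 1 called higher and 1 lower between the knockdown groups by limma. On the hybridization scale 8 were called higher and 0 lower, where 26.5% of all probe sets were called higher. On the deposited scale their median was 0.12, with sums of 51583 and 51140 in shCaf1 and 54909 and 54344 in shMiwi.

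Against control, the histone genes that could be tested divided between both directions on the deposited scale. In shMiwi 1 of 11 was called higher (H2bc21) and 3 lower (H1f6, H1f10 and H3f3a) at a limma adjusted p under 0.05, beside 16.9% of all probe sets higher and 26.4% lower. In shCaf1 1 was called higher (H2bc21) and 1 lower (H1f6), beside 15.5% and 26.0%. The median log2 difference of the tested members, H3f3b included, was 0.82 for shMiwi and 1.01 for shCaf1, against -0.20 and -0.25 over all probe sets. On the hybridization scale all 10 tested members were called higher and 0 lower in both comparisons, where 94.0% and 91.5% of all probe sets were called higher and 0.0888% and 0.0333% lower, with medians of 5.31 and 4.96 against 3.58 and 3.15. The probe set of each gene was picked for its brightness in the knockdown groups, which favours a higher value there. On the deposited scale H3f3a, H3f3b and H2bc18 passed the filter through the control group alone, which favours a lower value. Both comparisons share the same control arrays, and the fit pools the spread of the 3 groups, of which the control's is the widest, so these p-values are too small for the control's own spread.

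H1f6 was called lower in both comparisons, with both control arrays (1113 and 508) above all 4 knockdown arrays. Its log2 difference was -2.53 in shMiwi (SE 0.51, limma adjusted p = 0.0147) and -3.02 in shCaf1 (SE 0.51, limma adjusted p = 0.0102). H1f10 differed by -2.50 in shMiwi (SE 0.76, limma adjusted p = 0.0471) and -2.22 in shCaf1 (limma adjusted p = 0.0671), and H3f3a by -1.90 (SE 0.58, limma adjusted p = 0.0472) and -1.72 (limma adjusted p = 0.0643). H3f3a passed the filter on 6 arrays only through the control group, where its mean log2 was 8.10 against 6.38 in shCaf1 and 6.20 in shMiwi. Its lower value was therefore favoured by the filter. For H1f6, H1f10 and H3f3a the groups did not overlap on the deposited scale, as for 40.3% of all probe sets in the lower direction in shMiwi and 40.9% in shCaf1, where H3f3b joined them. All of them turned higher on the hybridization scale, where 99.5% of all probe sets lay above control in each comparison. H1f6 turned to 2.0 and 1.18, H1f10 to 2.22 and 2.12 and H3f3a to 1.81 and 1.68. The H1f10 and H3f3a calls in shMiwi ended without any 1 of the 4 knockdown arrays (limma adjusted p of 0.0813 to 0.239 and 0.0939 to 0.204), and that of H1f6 without shMiwi replicate 1 (0.0745) or 2 (0.115) in shMiwi and without shCaf1 replicate 1 (0.0769) or 2 (0.0898) in shCaf1. Beside control 6 of 8 pachytene markers were called higher in each knockdown group (medians of 4.36 in shMiwi and 4.06 in shCaf1), the side opposite to H1f6 on the deposited scale, with sums of 2054 and 3715 on the control arrays. In shMiwi 5 of 7 round spermatid and 10 of 18 S phase markers were also called higher by limma, and in shCaf1 5 and 9, and the part of these cells in the histone values was not tested.

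H2bc21 was higher on all 4 knockdown arrays than on both control arrays (74 and 423). The log2 difference was 2.77 in shMiwi (SE 0.78, limma adjusted p = 0.0382) and 2.67 in shCaf1 (SE 0.78, limma adjusted p = 0.0439). On the hybridization scale it was 5.87 and 5.38, where 99.5% of all probe sets lay above control in each comparison. Its sign there therefore says nothing of this gene. Both calls on the deposited scale rest on 1 probe set. The second H2bc21 probe set read 677 and 259 in the control, around the knockdown arrays, with differences of 0.17 (limma adjusted p = 0.815) and -0.28 (limma adjusted p = 0.695). Without any 1 of the knockdown arrays both calls ended (limma adjusted p of 0.0851 to 0.176 in shMiwi and 0.0965 to 0.196 in shCaf1). Leaving out an array of the knockdown group compared ended every call over all 27022 probe sets, so that loss says nothing of any single gene. The other gene whose groups did not overlap, H2bc22, was higher in shMiwi by 1.24 (SE 0.68, limma adjusted p = 0.198) and in shCaf1 by 1.53 (limma adjusted p = 0.131). In the higher direction, 30.6% of all probe sets had no overlap in shMiwi and 30.0% in shCaf1.

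Hils1, H1f7 and the core gene H2ac19 gave large differences from control that did not pass; 1 control array lay far below and the other above the knockdown arrays. Hils1 differed by 3.28 in shMiwi (SE 2.75, limma adjusted p = 0.377), which is 7.69 against control array 1 and -1.13 against control array 2. H1f7 differed by 3.24 (SE 2.64, limma adjusted p = 0.365), with 7.47 and -1.0, and H2ac19 by 1.30 (SE 1.71, limma adjusted p = 0.567), with 4.0 and -1.39. On the chosen probe sets control array 2 stood above control array 1 by 596-fold for Hils1, 489-fold for H1f7 and 42.9-fold for H2ac19. The control arrays lay closer together on the second probe sets, at 864 and 4411 for H1f7 and 1119 and 13527 for H2ac19. For H1f7 both of these were below all 4 knockdown arrays. The split on the chosen probe sets was present for shCaf1 too, at 7.94 and -0.89 for Hils1 and 7.87 and -0.61 for H1f7. It was also present in the summed elongating spermatid markers, at 3975 on control array 1 and 682848 on control array 2, and their part in these values was not tested.

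H2bc18 turned with the control array too, at -2.82 against control array 1 and 0.38 against control array 2 in shMiwi, and H1f2 gave 1.86 and -0.22. Of the 10 genes tested between the knockdown groups, H1f6, H1f10, H3f3a, H2bc21 and H2bc22 had the same sign against each control array on the deposited scale, and H1f2, H1f7, H2ac19, H2bc18 and Hils1 did not. All 10 lay above each control array on the hybridization scale in both knockdown groups. By group means, 99.5% of all probe sets lay above control on that scale in each comparison. Rescaled control signals were often below the added constant of 16, such as 4.89 and 10.1 for H3f3a and 7.06 and 3.02 for H2bc18. The sizes of such differences depend on that constant. H3f3b differed by -2.44 in shMiwi (SE 1.39, limma adjusted p = 0.213), but it passed the filter on 6 arrays only through the control group, where its mean log2 was 8.30 against 5.57 in shCaf1 and 5.86 in shMiwi, so a lower value was favoured by the filter. Control array 1 read 1360 and control array 2 read 56.

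**Figure D3:**
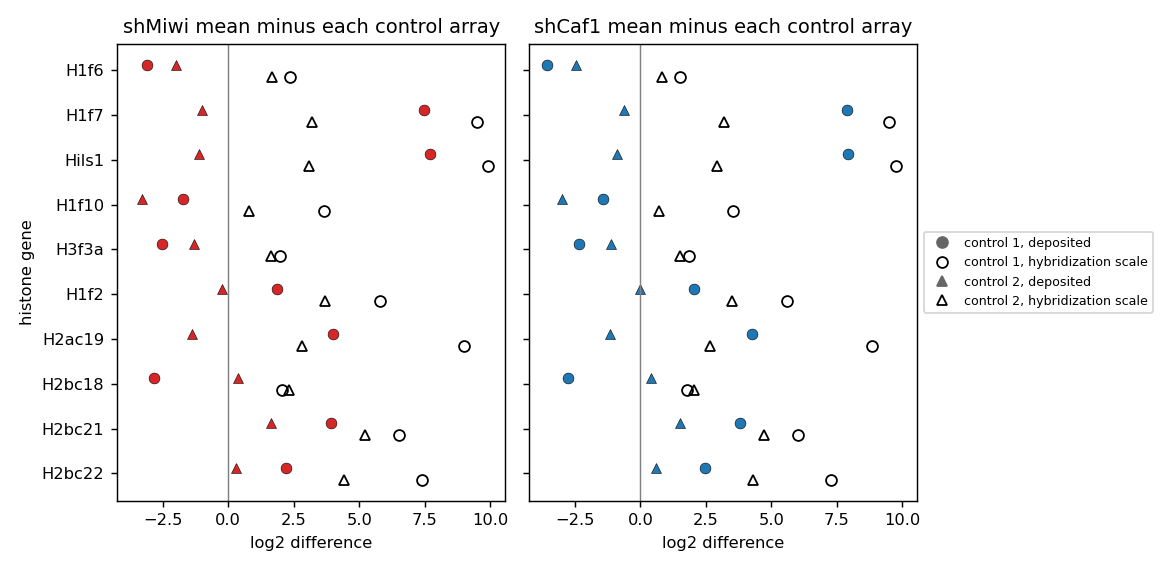
Log2 difference of the shMiwi mean (left) and the shCaf1 mean (right) from each control array for the 10 histone genes tested between the knockdown groups; circles stand for control array 1 and triangles for control array 2, filled on the deposited scale and open on the hybridization control scale. For Hils1 and H1f7 the filled circle lies above 7 and the filled triangle below 0, while every open symbol lies above 0. By group means, 99.5% of all probe sets lay above control on the hybridization scale in each comparison.

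Probe sets shared by several histone genes were fitted in the same models. Of the 22, 19 passed the filter on the knockdown arrays. Between shMiwi and shCaf1 0 were called higher and 1 lower by limma, against 3.70% and 3.39% of all probe sets. On the hybridization scale 3 were called higher and 0 lower, against 26.5% and 0.966%. The one called lower names 13 H4 genes and read 2096 and 2011 in shCaf1, 1328 and 1448 in shMiwi and 7810 and 4082 in the control. Both shMiwi arrays were below both shCaf1 arrays (log2 -0.56, SE 0.12, limma adjusted p = 0.0361), but on the hybridization scale the difference was -0.17 (limma adjusted p = 0.588). A second H4 probe set of the same 13 genes lay on the same side, at 2459 and 2872 in shCaf1 and 1919 and 2177 in shMiwi (-0.38, limma adjusted p = 0.123). Of the 3 further H4 probe sets, 2 were tested, with differences of 0.06 and -0.12.

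H3.3 was read by 5 probe sets that name 6 genes each. Between the knockdown groups none was called by limma. The one nearest to the threshold read 20273 and 23237 in shCaf1 and 16933 and 17121 in shMiwi, lower on both shMiwi arrays (-0.35, SE 0.10, limma adjusted p = 0.0739). Against control 4 of the 5 were called lower and 1 higher in each knockdown group. Over all probe sets 26.4% were called lower and 16.9% higher in shMiwi, and 26.0% and 15.5% in shCaf1. The H3.3 probe set nearest to the threshold between the knockdown groups read 581068 and 279243 in the control (-4.56 in shMiwi, limma adjusted p = 0.00574). The one called higher read 1114 and 521 in the control against 12109 and 13761 in shMiwi (4.05, limma adjusted p = 0.00554). Probe sets of the same H3.3 genes thus stood on opposite sides of control on the deposited scale. On the hybridization scale all 5 were above it, by 0.83 to 8.62 in shMiwi, with 1 of the 5 called, where 94.0% of all probe sets were called higher.

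An H2B probe set of 3 genes was also set apart from control, at 31 and 59 in the control, 839 and 961 in shCaf1 and 860 and 1043 in shMiwi (4.02 in shMiwi, SE 0.39, limma adjusted p = 0.00429; 3.95 in shCaf1, limma adjusted p = 0.00527). An H3 probe set of 12 genes had the reverse order, at 12817 and 3309 in the control, 761 and 572 in shCaf1 and 528 and 445 in shMiwi (-3.71 in shMiwi, limma adjusted p = 0.0124; -3.27 in shCaf1, limma adjusted p = 0.0181). It turned to 1.56 and 1.60 on the hybridization scale. Over the 18 shared probe sets tested against control, 2 were called higher and 7 lower in shMiwi (16.9% and 26.4% of all probe sets) and 2 and 6 in shCaf1 (15.5% and 26.0%). The balance turned on the hybridization scale, to 13 higher and 0 lower in each comparison, where 94.0% and 91.5% of all probe sets were higher.

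**Figure D4:**
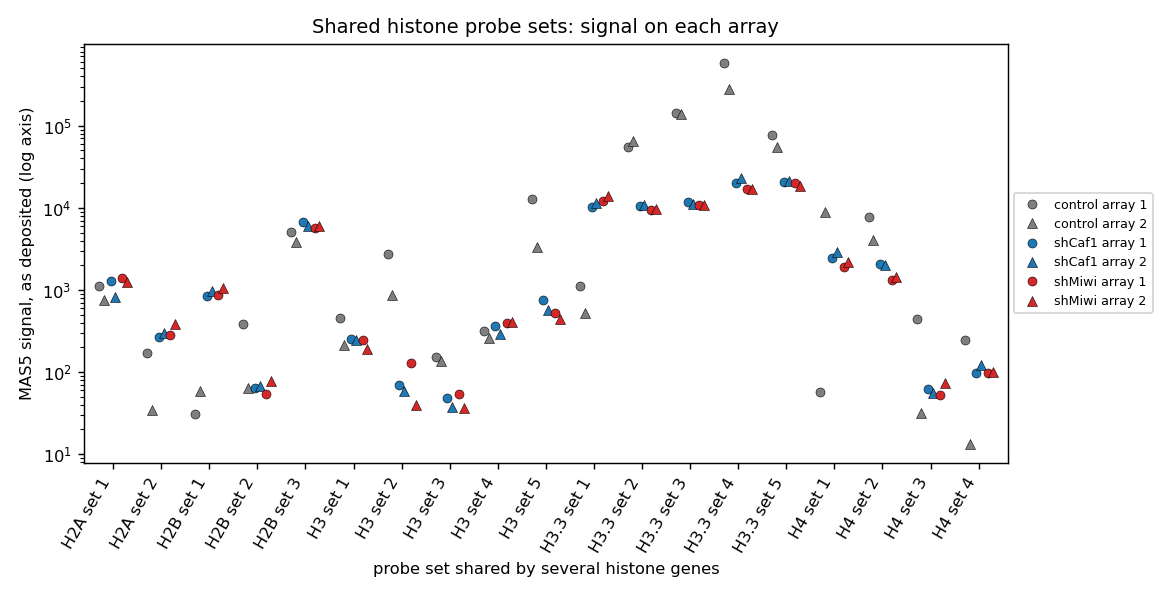
Deposited signal on each array, on a log axis, for the 19 shared histone probe sets that passed the filter, by family; grey is control, blue shCaf1 and red shMiwi, with circles for array 1 and triangles for array 2. The first H3.3 probe set lies above control on all knockdown arrays and the other 4 lie below it.

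Histone variants whose current symbols fall outside the rule were read from a list of 8 genes found. Between shMiwi and shCaf1 0 of the 8 were called in either direction by limma, beside 3.70% and 3.39% of all probe sets, with a median of -0.22. H2al2a, a short H2A variant of condensing spermatids, read 7411 and 8466 in shCaf1 and 6002 and 6845 in shMiwi. It was lower on both shMiwi arrays without passing (-0.30, SE 0.12, limma adjusted p = 0.153), and its control arrays, at 49 and 11314, split as those of Hils1 did. H2ax, the variant phosphorylated at DNA breaks, overlapped between the groups (2996 and 2604 in shCaf1, 3046 and 2319 in shMiwi; -0.07, limma adjusted p = 0.819), as did H2az1, a variant found at promoters (6697 and 7392 against 5877 and 7310; -0.10, limma adjusted p = 0.681). These 3 were named after their values were seen.

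On the deposited scale some genes on a wider list of histone exchange and chromatin factors were called in each direction between the knockdown groups. Of 42 tested members of the list of transition proteins, protamines, chromatin readers and histone chaperones, 4 were called higher and 4 lower in shMiwi by limma, with a median of 0.00, beside 3.70% and 3.39% of all probe sets. The hybridization scale gave 11 higher and 0 lower, where 26.5% of all probe sets were called higher. The 4 called lower on the deposited scale were Prm1, Prm2, Prm3 and the transition protein gene Tnp1. Prm3 read 10184 and 12775 in shCaf1 and 6480 and 6555 in shMiwi (-0.81, SE 0.12, limma adjusted p = 0.0123), and Prm2 26546 and 26216 against 19903 and 18090 (-0.48, SE 0.10, limma adjusted p = 0.0278). Prm1 differed by -0.45 (limma adjusted p = 0.0419) and the transition protein gene Tnp1 by -0.41 (limma adjusted p = 0.042). Tnp2, at 21623 and 21801 in shCaf1 and 19231 and 14281 in shMiwi, did not pass (-0.39, limma adjusted p = 0.121). On the hybridization scale none of these 5 was called, with values of -0.41 for Prm3, -0.08 for Prm2, -0.05 for Prm1, -0.01 for Tnp1 and 0.01 for Tnp2. The elongating spermatid marker list above holds 4 of them, Prm1, Prm2, Tnp1 and Tnp2. Each of the 4 calls ended when some single array was left out, Prm3 without shCaf1 replicate 2 (-0.64, limma adjusted p = 0.0588) and Prm2, Prm1 and Tnp1 without any of at least 3 arrays (limma adjusted p of 0.0876 to 0.11, 0.0781 to 0.225 and 0.0652 to 0.222).

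The 4 called higher act on chromatin in other ways. Cdyl2, a chromodomain protein, read 204 and 209 in shCaf1 and 351 and 411 in shMiwi (0.83, SE 0.18, limma adjusted p = 0.0362). Hira, the chaperone that deposits H3.3, read 204 and 267 in shCaf1 and 440 and 405 in shMiwi (0.81, SE 0.19, limma adjusted p = 0.0432). The other two were the deacetylase gene Sirt1 (0.55, limma adjusted p = 0.0373) and the H3-H4 chaperone gene Asf1a (0.50, limma adjusted p = 0.0436), named after their values were seen. Without 1 array the Cdyl2 call ended for 3 of the 4 arrays (0.72 to 0.85, limma adjusted p of 0.0825 to 0.161), and that of Hira likewise for 3 (0.63 to 0.99, limma adjusted p of 0.0506 to 0.221). All 4 were called higher on the hybridization scale as well, at 0.89 to 1.21. Brdt, the testis bromodomain protein that binds acetylated histones, was above on both shMiwi arrays and was not called, at 2553 and 2639 in shCaf1 and 2752 and 3240 in shMiwi (0.20, limma adjusted p = 0.363), although it was called higher on the hybridization scale (0.60, limma adjusted p = 0.0246). Rnf8, a ubiquitin ligase for histones in spermatids, overlapped (967 and 1033 against 1090 and 883; -0.03, limma adjusted p = 0.939).

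A further list joined factors of the histone mRNA 3' end, such as Slbp, with Npat and with general mRNA cleavage, poly(A) and decay genes. Its calls were near the background. Of 34 tested, 0 were called higher and 1 lower by limma between the knockdown groups, with a median of 0.01, beside 3.70% and 3.39% of all probe sets. The hybridization scale gave 9 higher and 0 lower, where 26.5% of all probe sets were called higher. The one called lower was Cstf1, a subunit of the cleavage stimulation factor, at 1011 and 1005 in shCaf1 and 639 and 640 in shMiwi (-0.64, SE 0.14, limma adjusted p = 0.0324), and -0.25 on the hybridization scale (limma adjusted p = 0.414). The call ended without shCaf1 replicate 1 (limma adjusted p = 0.154) or 2 (0.195). Slbp, which binds the histone stem-loop, read 6056 and 5970 in shCaf1 and 7059 and 8008 in shMiwi, above on both arrays without passing (0.32, SE 0.11, limma adjusted p = 0.111). Npat, the activator of replication-dependent histone genes, read 1347 and 1397 against 1642 and 1833, likewise above without passing (0.33, SE 0.13, limma adjusted p = 0.148). Both were called higher on the hybridization scale, Slbp at 0.72 (limma adjusted p = 0.00328) and Npat at 0.73 (limma adjusted p = 0.00901). On the control arrays Slbp read 90 and 239, below every knockdown array.

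Markers of other cells stood beside these values as follows. Between shMiwi and shCaf1 limma called 1 of 10 Sertoli cell, 1 of 4 Leydig cell and 2 of 4 peritubular myoid cell markers higher and none of them lower, and on the hybridization scale 4, 2 and 4 of them higher. None of 10 spermatogonial, 7 leukocyte and 3 tested endothelial markers was called in either direction on the deposited scale. On the hybridization scale 2, 2 and 1 of them were called higher and 0 lower, where 26.5% of all probe sets were called higher. The summed myoid signal was 3608 and 3817 in shCaf1 and 4989 and 4669 in shMiwi, and 2 endothelial markers, Pecam1 and Tie1, were under the filter. The part of these cells in the histone values was not tested.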

How the data were processed

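Per the labels, total RNA was extracted with Trizol and labelled with a 3' IVT Express kit for Affymetrix mouse arrays. For each probe set and array the authors deposited a linear signal intensity; MAS5 is named in the submitters' processing notes, and its version and settings are not given in the sources used here. The deposited intensities have a 2% trimmed mean of 500 on each of the 6 arrays. Neither scanner files nor detection calls were used.

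Groups and replicate numbers came from the sample titles. The 64 control probe sets were left out, signals were taken to log2 after adding 16, which understates differences of dim probe sets, and probe sets with a mean above the 40th percentile of the arrays in the fit were tested, 27022 in each fit. Group means were fitted in R 4.3.3 by limma 3.58.1, whose eBayes step used an intensity trend, with Benjamini-Hochberg adjustment over all tested probe sets, on 4 arrays and 2 residual degrees of freedom for shMiwi against shCaf1 and 6 arrays and 3 for the comparisons with control. Calls are at an adjusted p under 0.05. Only 2 arrays a group limit the precision. The calls were tested on simulated data. The hybridization scale rests on 18 bacterial and phage spike probe sets (bioB, bioC, bioD, cre), and other constants, filters, scalings, variance models, probe set choices, array sets, a replicate block and leaving out each array were run. The shared probe sets and the separate control arrays were added after seeing the data.

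Same-numbered arrays deviated together at r = 0.192 for shMiwi and shCaf1, 0.00396 for shMiwi and control and 0.0606 for shCaf1 and control, so the numbers were not taken as pairs. Genes were named only from probe sets that the platform annotation gives 1 gene; symbols, chromosomes and upstream windows came from RefSeq (GRCm38.p6), which matched all 17 members. Named genes were every member, the called or pre-listed genes Tnp1, Tnp2, Prm1, Prm2, Slbp, Npat, Brdt and Rnf8, the first 2 called per direction in the histone exchange and 3' end lists, and both targets. The members, lists and tests were chosen with earlier results of these data known.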

Additional observations from a re-analysis of the deposited data

How the results depend on the processing

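Between shMiwi and shCaf1, 0 histone genes were called higher and 0 lower. The number lower became 1 with the filter at the 60th percentile (H1f7) and 2 with the replicate block (H1f7, adjusted p = 0.00586; Hils1, adjusted p = 0.0417), the number higher 1 on the hybridization scale (H1f6), and leaving out 1 array gave 0 to 2 lower and 0 higher. The replicate block raised the calls over all probe sets from 1000 higher and 916 lower to 2936 and 2456. With 6 arrays in 1 fit these fell to 0 and 0, without the intensity trend to 2 and 14, without a filter to 269 and 299, and on the hybridization scale they were 7155 and 261. Hils1 turned to 0.01 after quantile normalization. On the hybridization scale the difference was 0.10 for H1f10, 0.20 for H1f2, 0.00 for H1f7, 0.15 for H2ac19 and for Hils1, 0.28 for H2bc18, 0.11 for H2bc22, 0.13 for H3f3a, 0.37 for Rnf8 and 0.01 for Tnp2. Leaving out 1 array gave -1.02 to 0.46 for H1f10, -0.40 to 0.01 for H1f2, -0.23 to 0.15 for H2bc18, -0.06 to 0.26 for H2bc21, -0.58 to 0.21 for H3f3a and -0.17 to 0.12 for Rnf8.

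For shMiwi against control, 1 histone gene was called higher and 3 lower. The number higher was 2 with median scaling and by a rule of at least 2-fold without overlap, 10 on the hybridization scale, and 0 after quantile normalization, with only the 2 groups in the fit, with the dimmest probe set of each gene and with plain probe sets only. The number lower was 1 at the 60th percentile and after quantile normalization, and 0 with median or hybridization scaling. Leaving out 1 array gave 0 to 6 in each direction; a lone array was assumed to vary like the other groups. The differences that turned were H2bc18 at 0.36 (median), 0.02 (quantile) and 2.18 (hybridization), H1f10 at 2.22, H1f6 at 2.0 and H3f3a at 1.81 (hybridization), and H1f2 at -3.36 (dimmest or plain probe set). Without single arrays the ranges were -0.22 to 1.86 for H1f2, -1.0 to 7.47 for H1f7, -1.39 to 4.0 for H2ac19, -2.82 to 0.38 for H2bc18 and -1.13 to 7.69 for Hils1; the turned values are those without control array 1, for H2bc18 too.

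For shCaf1 against control, 1 was called higher and 1 lower. The number higher was 2 with median scaling and by the 2-fold rule, 10 on the hybridization scale, and 0 with a constant of 1, at the 60th percentile, after quantile normalization, with only the 2 groups and with either other choice of probe set. The number lower was 0 on the hybridization scale, 4 by the 2-fold rule and 2 with a constant of 64, without a filter, with only the 2 groups and with either other probe set. Leaving out 1 array gave 0 to 6 in each direction. The differences that turned were H2bc18 at 0.39 (median), 0.03 (quantile) and 1.90 (hybridization), H1f10 at 2.12, H1f6 at 1.18 and H3f3a at 1.68 (hybridization), and H1f2 at -4.36 and H2bc21 at -0.28 (dimmest or plain probe set). Without single arrays the ranges were -0.03 to 2.05 for H1f2, -0.61 to 7.87 for H1f7, -1.15 to 4.24 for H2ac19, -2.78 to 0.42 for H2bc18 and -0.89 to 7.94 for Hils1. The cause of these shifts was not tested. For the shared probe sets, Sirt1 and Asf1a, only the deposited scale, the hybridization scale and the fit of 6 arrays were run; in the last, as for all probe sets, none was called between shMiwi and shCaf1 (adjusted p = 1 for the H4 probe set, Sirt1 and Asf1a). The labels do not say whether same-numbered arrays share a batch, and the numbers were not taken as pairs. Calls that the replicate block moves say nothing of effect size. With 2 arrays a group, differences near the replicate spread could not be resolved.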
